A study of Sus scrofa with 29 samples.

Results

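Splicing factors and RNA helicases were described in the inner lining of 2 arteries from exercise-trained and sedentary pigs. The members were the genes whose single symbol in the platform annotation names an hnRNP protein (HNRNP), an SR protein (SRSF or SFRS), a subunit of SF3A or SF3B, a numbered RNA binding motif protein (RBM), a numbered DEAD-box helicase (DDX, without DDX58), a snRNP protein (SNRP), a numbered pre-mRNA processing factor (PRPF) or a U2AF subunit. This rule gave 95 of the 6765 genes with single-symbol probe sets, represented by 148 of 23999 probe sets. Each gene was read from the probe set with the highest mean over all arrays, which left 53 further probe sets for 35 of the genes. The 5 genes PRPF8, U2AF1, DDX5, DDX3X and DDX3Y had no probe set by this rule. Of the 95 members, 87 had a mean above the median probe set. The probe set of DDX1 is marked as shared with other sequence, so its values are uncertain.

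The samples were scrapes of the luminal surface, enriched in endothelial cells. The exercised pigs trained on a treadmill for 16 to 20 weeks, reaching bouts of 85 min on 5 days a week by week 10, and were killed about 24 h after the last bout. The sedentary pigs stayed confined to their pens. All pigs were healthy, and the labels used here give neither strain nor age. The groups were 7 exercised and 7 sedentary brachial arteries, from the foreleg, and 8 exercised and 7 sedentary internal mammary arteries, from the chest wall. In all, 29 samples of 15 pigs were arrayed. Both arteries were analysed for 14 animals and the internal mammary artery alone for 1 exercised animal, by the sample labels, whereas the design text gives that animal the brachial artery alone. For 8 internal mammary samples the titles and treatment tags say exercised while the source label says sedentary, and the titles and tags were followed. Every exercise change that includes this artery rests on those titles and tags. In bulk scrapes fewer cells of a type and less RNA per cell cannot be told apart.

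The spliceosome removes introns from pre-mRNA. The U1 snRNP and U2AF mark the ends of an intron, the U2 snRNP with SF3A and SF3B binds the branch site, and the U4/U6.U5 tri-snRNP then joins and is rearranged into the catalytic core. SR proteins bound to exons mostly favour the use of nearby splice sites, whereas hnRNP proteins coat the nascent transcript and often repress splice sites. DEAD-box helicases use ATP to remodel RNA and RNA-protein complexes in splicing, export, translation, decay and the making of ribosomes.

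Values are log2 probe set intensities, so the value of one probe set cannot be set against that of another. A number after ± is the SE of a log2 change or the SD of a group mean. Changes are exercised minus sedentary, or brachial minus internal mammary, from limma fitted across all probe sets. Rose and fell are used only of an adjusted p below 0.05, over all probe sets. Array medians ran from 7.13 to 7.28. Of 13 measured endothelial markers, 12 lay above the median probe set, as did 12 of 12 smooth muscle markers and 7 of 9 macrophage markers, against 0 of 9 lymphocyte markers. These positions do not measure the share of any cell type.

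One animal, sedentary pig 12_3, stood apart. The mean over the 95 members, each centred per artery, was highest in this pig among the sedentary samples of both arteries, at 0.167 in its brachial and 0.203 in its internal mammary artery. RBM3, a cold-inducible RNA-binding protein, was lowest in the same pig, at 11.19 in the brachial artery, where the next sedentary pig had 12.24, and 11.18 in the internal mammary artery, where the next had 12.27. The pig also had the highest macrophage marker mean of the sedentary brachial arteries (0.804, as a deviation from each marker's mean). The counts of passing members per comparison are therefore given with and without it. Those by role, by gene list and with covariates are given with it alone.

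The first comparison set exercised against sedentary brachial arteries. Of the 95 members 0 rose and 6 fell, namely the helicase DDX39A, the hnRNP proteins HNRNPAB and HNRNPM, the SR protein SRSF7, the splicing kinase PRPF4B and the 3′ splice site factor RBM17. The falls measured 0.21 to 0.45 on the log2 scale. Over all probe sets 0.613% fell and 1.02% rose. The changes of 78 of 95 members were negative, with a median of -0.11, against 46.6% of all probe sets, whose median was 0.01. An unadjusted p below 0.05 was reached by 33 members, against 15.4% of all probe sets. Among the 6765 genes read in the same way it was 20.7%. Without pig 12_3 the 3 members DDX39A, HNRNPAB and PRPF4B fell, 72 changes were negative and the median was -0.10. When only brachial arrays entered the model, so that no pig block was needed, 0 members passed and 27 had an unadjusted p below 0.05. DDX39A then gave -0.45 ± 0.10, adjusted p = 0.055 and HNRNPAB -0.40 ± 0.09, adjusted p = 0.0538.

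DDX39A is a close relative of DDX39B, and both act in coupling splicing to mRNA export. Its lowest, median and highest values were 8.25, 8.44 and 8.73 in exercised brachial arteries, against 8.54, 8.99 and 9.12 in sedentary ones. All 7 exercised pigs lay below the sedentary mean, and the ranges overlapped. The change was -0.45 ± 0.09, adjusted p = 0.0104. HNRNPAB, an hnRNP that binds AU-rich and single-stranded sequence, had lowest, median and highest values of 10.95, 11.15 and 11.22 in exercised brachial arteries, against 11.26, 11.48 and 11.83 in sedentary ones. Every exercised value was below every sedentary value. This was 1 of 95 members, where 0.221% of all probe sets showed such a separation. HNRNPAB fell by 0.40 on the log2 scale (SE 0.09, adjusted p = 0.0191).

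SRSF7, an SR protein that also serves as an adaptor for mRNA export, had 11.01, 11.23 and 11.53 in exercised brachial arteries (lowest, median and highest), against 11.45, 11.57 and 11.94 in sedentary ones. The ranges overlapped, though each exercised pig was under the sedentary mean. The change was -0.34 ± 0.09, adjusted p = 0.0488. PRPF4B, a kinase that phosphorylates tri-snRNP proteins, had 9.94, 10.04 and 10.22 in exercised brachial arteries, against 10.15, 10.31 and 10.59 in sedentary ones. One sedentary pig lay within the exercised range, and the change was -0.30 ± 0.07, adjusted p = 0.0252. HNRNPM, a regulator of alternative exons, had 10.83, 11.00 and 11.11 in exercised brachial arteries, against 11.07, 11.22 and 11.42 in sedentary ones, and fell by 0.23 (SE 0.06, adjusted p = 0.0481). RBM17, also known as SPF45, had 9.05, 9.14 and 9.20 in exercised brachial arteries, against 9.08, 9.34 and 9.60 in sedentary ones, where 1 pig lay within the exercised range. RBM17 fell by 0.21 (SE 0.05, adjusted p = 0.0392).

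**Figure D1:**
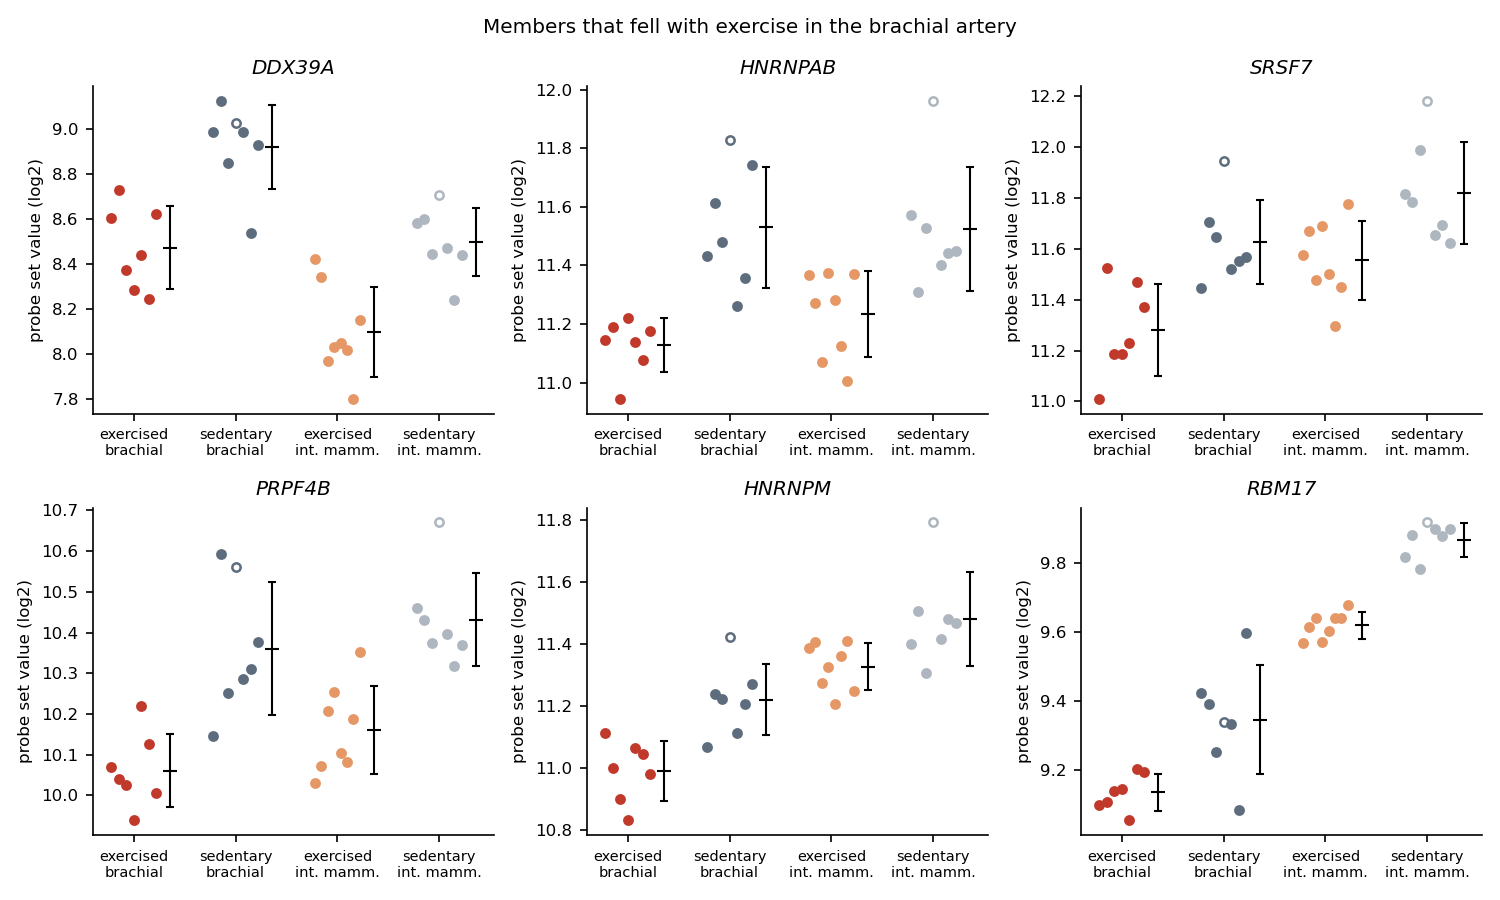
Probe set values (log2, vertical axes) of the 6 members that fell with exercise in the brachial artery, by artery and training; points are pigs, open points are pig 12_3, and bars are the mean and SD. HNRNPAB ran from 10.95 to 11.22 in exercised and from 11.26 to 11.83 in sedentary brachial arteries, and RBM17 from 9.57 to 9.68 in exercised and from 9.78 to 9.92 in sedentary internal mammary arteries, neither pair overlapping.

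Next by p in the brachial artery were the negative changes of HNRNPH3 (-0.29 ± 0.08, adjusted p = 0.0564), DDX21 (-0.51 ± 0.15, adjusted p = 0.0697) and SRSF6 (-0.35 ± 0.10, adjusted p = 0.0778), none of which passed. DDX46 had the largest negative change, at -0.55 ± 0.19, adjusted p = 0.117, with 5.87, 6.85 and 7.70 in exercised against 6.95, 7.40 and 7.71 in sedentary brachial arteries, and did not pass. Of the positive changes the smallest p was that of DDX25, known as a helicase of the testis, at 0.36 ± 0.11, adjusted p = 0.0799. HNRNPA1, among the best studied splicing repressors, had 12.21, 12.28 and 12.61 in exercised brachial arteries, against 12.05, 12.11 and 12.20 in sedentary ones. The ranges did not overlap, in 1 of 95 members in this direction, and the share of all probe sets so separated was not counted. The change of 0.19 ± 0.07, adjusted p = 0.162 did not pass. SNRPN (0.15 ± 0.07, adjusted p = 0.306), PRPF31 (0.14 ± 0.06, adjusted p = 0.311) and the interferon-inducible helicase DDX60 (0.40 ± 0.21, adjusted p = 0.369) did not pass either. Near 0 or well short of the threshold were SF3B1 (-0.09 ± 0.07, adjusted p = 0.596), DDX39B (-0.13 ± 0.12, adjusted p = 0.672) and SRSF1 (-0.11 ± 0.08, adjusted p = 0.574).

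Macrophage markers were lower in the same exercised brachial arteries. Their mean was -0.427 ± 0.208 in exercised and 0.116 ± 0.361 in sedentary samples, with ranges of -0.649 to -0.122 and -0.307 to 0.804, and the sedentary mean above all 7 exercised pigs (difference -0.543, exact permutation p = 0.00408, two-sided, or 0.0306 when adjusted over 30 such tests). All 9 measured markers had negative changes and 3 of them fell, namely C1QC, FCER1G and TYROBP. The difference was -0.368 in the pigs collected early (exact permutation p = 0.286), -0.428 without pig 12_3 and -0.689 in those collected late, where the exact permutation p of 0.0286 is the lowest that 7 pigs can give. With the marker mean as a covariate 0 of 95 members passed in the brachial artery, 20 had an unadjusted p below 0.05, the median member change was -0.09 and 68 changes were negative. The share of all probe sets passing in this fit is not given here, so the loss of calls cannot be read as particular to the members. The changes were then -0.41 ± 0.11, adjusted p = 0.164 for DDX39A, -0.23 ± 0.07, adjusted p = 0.203 for RBM17 and -0.26 ± 0.10, adjusted p = 0.361 for HNRNPAB. Endothelial markers differed by 0.0140 (exact permutation p = 0.888). All 12 smooth muscle markers had negative changes in each artery and 0 passed.

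The second comparison set exercised against sedentary internal mammary arteries. RBM17 and DDX39A fell, 2 of 95 members, and 0 rose, where 0.138% of all probe sets fell and 0.458% rose. The changes of 79 members were negative, with a median of -0.11, against 48% of all probe sets, whose median was 0.01. An unadjusted p below 0.05 was reached by 27 members, against 12.3% of all probe sets and 16.7% of the 6765 genes. RBM17 had lowest, median and highest values of 9.57, 9.63 and 9.68 in exercised internal mammary arteries, against 9.78, 9.88 and 9.92 in sedentary ones. The ranges did not overlap, and the change was -0.25 ± 0.05, adjusted p = 0.0255. DDX39A had 7.80, 8.04 and 8.42 in exercised arteries, against 8.24, 8.47 and 8.71 in sedentary ones. Its ranges overlapped, each of the 8 exercised pigs being under the sedentary mean, and the change was -0.40 ± 0.09, adjusted p = 0.0287.

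The other member whose exercised values all lay below the sedentary ones in this artery was HNRNPA3, with 11.42, 11.54 and 11.62 in exercised and 11.65, 11.68 and 11.76 in sedentary internal mammary arteries. It was, with RBM17, 1 of 2 such members, where 0.133% of all probe sets were so separated. Its change of -0.16 ± 0.06, adjusted p = 0.176 did not pass. Next by p were PRPF4B (-0.27 ± 0.07, adjusted p = 0.0541), HNRNPA2B1 (-0.20 ± 0.05, adjusted p = 0.0707) and HNRNPAB (-0.29 ± 0.09, adjusted p = 0.111). Of the positive changes DDX60 had the largest, at 0.66 ± 0.20, adjusted p = 0.132, with 5.34, 6.00 and 6.92 in exercised against 5.01, 5.39 and 5.77 in sedentary arteries. DDX60 overlapped between the groups, and 7 of 8 exercised pigs lay above the sedentary mean. DDX25 (0.29 ± 0.11, adjusted p = 0.214), SNRPN (0.16 ± 0.07, adjusted p = 0.356), HNRNPA1 (0.10 ± 0.07, adjusted p = 0.585) and the germ cell helicase DDX4 (0.11 ± 0.07, adjusted p = 0.608) were positive as well and did not pass.

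With the internal mammary arrays fitted alone RBM17 passed (-0.25 ± 0.04, adjusted p = 0.0364) and DDX39A did not (-0.40 ± 0.09, adjusted p = 0.104). Both falls missed the threshold without pig 12_3, where RBM17 gave -0.24 ± 0.06, adjusted p = 0.061, DDX39A gave -0.36 ± 0.09, adjusted p = 0.0816, 0 members passed, 19 had an unadjusted p below 0.05 and 72 changes were negative. The count was 0 also without pig 11_1, 11_3 or 13_2. The 28S/18S ratio, a measure of RNA integrity in the labels, was higher in exercised internal mammary arteries, at 1.33 ± 0.0841 against 1.19 ± 0.0763 in sedentary ones (difference 0.144, exact permutation p = 0.00544, adjusted p = 0.0317). Early pigs differed by 0.185, at the lowest exact permutation p their number allows (0.0286), and late pigs by 0.0967 (exact permutation p = 0.4). With it as a covariate the same 2 members passed, RBM17 at -0.26 ± 0.06, adjusted p = 0.0257 and DDX39A at -0.44 ± 0.09, adjusted p = 0.0187. Macrophage markers in this artery differed by -0.0784 (exact permutation p = 0.596), and with their mean as a covariate both members passed again. Endothelial markers differed by -0.121 (exact permutation p = 0.159), with 7 of 8 exercised pigs under the sedentary mean. Of the 13 endothelial markers, however, 9 had positive changes and 4 negative ones, with a median of 0.06. These changes ran from -2.14 to 0.43, and 0 passed. Lymphocyte markers averaged 0.157 ± 0.221 in exercised and -0.136 ± 0.187 in sedentary internal mammary arteries (exact permutation p = 0.0183, adjusted p = 0.0688). Of these 9 markers 7 had positive changes, with a median of 0.13, and only CD79B rose (1.46, adjusted p = 0.0244). The part of lymphocytes in the member changes was not tested.

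The change with exercise was then averaged over both arteries, from the same arrays. One member rose and 15 fell, where 2.88% of all probe sets rose and 1.8% fell. Of the 6765 genes with single-symbol probe sets 4.67% rose and 2.88% fell. Negative changes made up 78 of 95, with a median of -0.11, against 46.7% of all probe sets, whose median was 0.01. Without pig 12_3, 1 member rose, 11 fell and the median was -0.09, with DDX27, HNRNPH3, PRPF39 and SNRPD3 no longer passing. Of the 53 further probe sets 44 had the sign of the one reported for their gene, and 3 fell. With each pig's 2 arteries averaged before the fit, 4 members passed, namely DDX39A (-0.42 ± 0.09, adjusted p = 0.0382), RBM17 (-0.23 ± 0.05, adjusted p = 0.0296), PRPF4B (-0.29 ± 0.06, adjusted p = 0.0238) and HNRNPAB (-0.36 ± 0.08, adjusted p = 0.0417), and 12 no longer did. The genes follow by role.

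Of 11 SR proteins 2 fell, SRSF7 (-0.30 ± 0.07, adjusted p = 0.0114) and SRSF6 (-0.27 ± 0.08, adjusted p = 0.0492), and all 11 had negative changes in each artery, with a brachial median of -0.12 and an internal mammary median of -0.17. SRSF6, which binds exonic enhancers, had 10.52, 10.70 and 10.98 in exercised against 10.79, 11.12 and 11.29 in sedentary brachial arteries, and 10.70, 10.87 and 11.34 in exercised against 10.72, 11.08 and 11.47 in sedentary internal mammary arteries. Both pairs of ranges overlapped, more so in the internal mammary artery. The 5 further probe sets of SRSF6 gave averaged changes of -0.31, -0.29, -0.26, -0.26 and -0.22, and 3 of them passed. SRSF3, which had the highest mean value of the group, gave -0.12 ± 0.08, adjusted p = 0.472. SRSF1, the prototype of the family, gave -0.15 ± 0.06, adjusted p = 0.176.

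Of 17 hnRNP proteins 5 fell, 0 rose and 12 did not pass, and 15 changes were negative (median -0.10). HNRNPAB fell by 0.34 (SE 0.07, adjusted p = 0.00399), HNRNPH3 gave -0.21 ± 0.06, adjusted p = 0.0443 and HNRNPM -0.19 ± 0.05, adjusted p = 0.0172. HNRNPA2B1, an abundant hnRNP of splicing and RNA transport, had 12.67, 12.71 and 12.77 in exercised against 12.76, 12.87 and 12.99 in sedentary brachial arteries, and 12.44, 12.60 and 12.69 in exercised against 12.64, 12.81 and 13.04 in sedentary internal mammary arteries. All 15 exercised samples lay below the sedentary mean of their artery. The averaged changes of HNRNPA2B1 and its relative HNRNPA3 were -0.17 ± 0.04, adjusted p = 0.0165 and -0.17 ± 0.04, adjusted p = 0.0212. The further probe sets of HNRNPA2B1 gave -0.10 and -0.02 and did not pass. Against these, HNRNPA1 gave 0.15 ± 0.05, adjusted p = 0.123.

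Among the snRNP proteins, 1 of 8 U1 and Sm proteins fell and 6 changes were negative (median -0.14). SNRPD3, a subunit of the Sm ring that all major spliceosomal snRNPs but U6 carry, had 11.23, 11.56 and 11.66 in exercised against 11.54, 11.74 and 11.89 in sedentary brachial arteries and 11.40, 11.56 and 11.65 in exercised against 11.62, 11.72 and 11.85 in sedentary internal mammary arteries. The ranges overlapped in both arteries and all exercised samples lay below the sedentary means. Its averaged change was -0.19 ± 0.05, adjusted p = 0.0251. SNRPN, an Sm protein transcribed from an imprinted locus in mammals, gave the opposite sign (0.16 ± 0.06, adjusted p = 0.118). Of 13 proteins of the U2 snRNP and branch site recognition 1 fell, RBM17 (-0.23 ± 0.04, adjusted p = 0.00223), with 9 negative changes and a median of -0.07. SF3B1, the scaffold of SF3B, gave -0.07 ± 0.05, adjusted p = 0.559, and U2AF2, which binds the polypyrimidine tract, gave 0.13 ± 0.08, adjusted p = 0.426.

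Of 11 proteins grouped with the tri-snRNP and catalytic core 2 fell and 9 changes were negative (median -0.12). PRPF4B fell by 0.28 (SE 0.05, adjusted p = 0.00283), with 10.03, 10.15 and 10.35 in exercised against 10.32, 10.40 and 10.67 in sedentary internal mammary arteries, which overlapped. PRPF39, whose yeast counterpart belongs to the U1 snRNP, fell by 0.20 (SE 0.06, adjusted p = 0.046), but its second probe set gave a change of 0.07. Of 16 RNA binding motif proteins 0 passed, 2 had an unadjusted p below 0.05, 14 changes were negative and the median was -0.10. RBM3 gave 0.20 ± 0.13, adjusted p = 0.428.

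Of 9 DEAD-box helicases grouped under splicing, export and translation, among them DDX60, 1 fell and 1 rose. DDX39A fell by 0.42 (SE 0.07, adjusted p = 0.000937), and its second probe set gave -0.23 ± 0.07 (adjusted p = 0.0683). DDX39B, its better known paralogue, gave -0.14 ± 0.09, adjusted p = 0.447, and DDX60 gave 0.53 ± 0.16, adjusted p = 0.0571. The riser was DDX25 (0.33 ± 0.08, adjusted p = 0.0231), with 5.43, 5.88 and 6.08 in exercised against 5.04, 5.55 and 5.65 in sedentary brachial arteries, and 5.61, 5.81 and 6.15 in exercised against 5.16, 5.66 and 5.83 in sedentary internal mammary arteries. Its values overlapped between groups and lay below the median probe set in all 29 samples.

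Of 9 DEAD-box helicases of ribosome synthesis and the nucleolus 3 fell and 7 changes were negative (median -0.15). DDX21, a nucleolar helicase of ribosomal RNA transcription and processing, had 10.11, 10.31 and 10.56 in exercised against 10.53, 10.61 and 11.68 in sedentary brachial arteries, and 10.10, 10.31 and 10.57 in exercised against 10.19, 10.66 and 11.47 in sedentary internal mammary arteries. The highest value of each sedentary group was that of pig 12_3. DDX21 fell by 0.41 (SE 0.11, adjusted p = 0.0373), and by 0.27 without that pig (adjusted p = 0.0466). DDX47 and DDX27, which process ribosomal RNA precursors, gave -0.28 ± 0.08, adjusted p = 0.0315 and -0.24 ± 0.07, adjusted p = 0.0349. Without pig 12_3 these were -0.19 ± 0.05, adjusted p = 0.0344 and -0.18 ± 0.06, adjusted p = 0.0794. DDX11, a DNA helicase that the naming rule also takes in, gave -0.08 ± 0.07, adjusted p = 0.584.

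**Figure D2:**
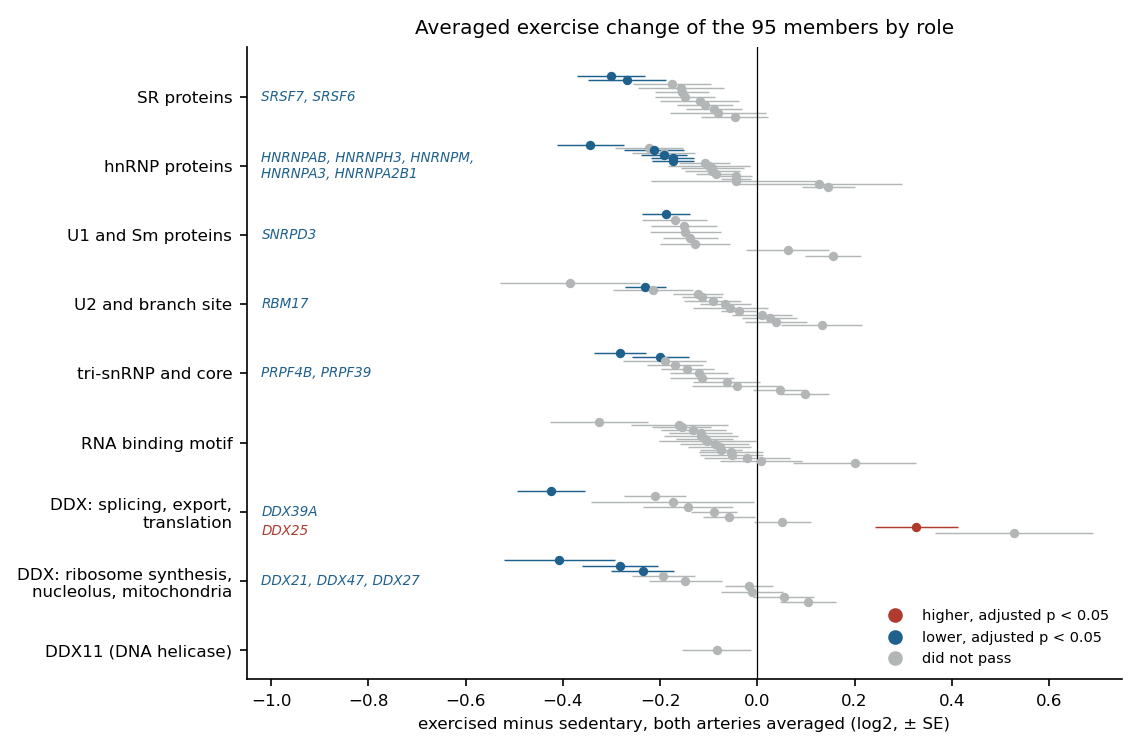
Exercise change averaged over both arteries (log2, horizontal axis) with its SE for each of the 95 members, by role; blue members fell, red ones rose and grey ones did not pass, with names of those that passed at the left. Of the 95 points 78 lie below 0, and all 11 SR proteins do.

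The difference between the arteries in the exercise change was tested as an interaction. Of the 95 members 0 passed, 0 had an unadjusted p below 0.05 and the lowest adjusted p was 0.9998, while over all probe sets 0% passed and 1035 had an unadjusted p below 0.05. Of the positive interactions the smallest p was that of DDX1 (0.15 ± 0.07), followed by HNRNPA1 (0.08 ± 0.08), RBM8A (0.06 ± 0.07), PRPF31 (0.08 ± 0.08) and HNRNPL (0.23 ± 0.26). Of the negative ones it was that of RBM19 (-0.19 ± 0.10), followed by HNRNPH3, HNRNPF (-0.13 ± 0.08), DDX46 (-0.34 ± 0.22) and DDX19A (-0.12 ± 0.08). Of the 15 members that fell in the average, DDX21 (-0.20 ± 0.18) and HNRNPH3 (-0.15 ± 0.10) had the largest. DDX39A gave -0.05 ± 0.11 and RBM17 0.04 ± 0.07. No member was therefore shown to differ between the arteries in its exercise change.

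Several of the averaged falls did not pass under other fits. When the macrophage marker mean was added to the model 4 members fell, 0 rose and 74 changes were negative. These 4 were DDX39A (-0.40 ± 0.08, adjusted p = 0.0122), RBM17 (-0.24 ± 0.05, adjusted p = 0.0122), PRPF4B (-0.26 ± 0.06, adjusted p = 0.0253) and HNRNPA3 (-0.22 ± 0.05, adjusted p = 0.0196). The covariate gave HNRNPAB -0.26 ± 0.07, adjusted p = 0.0581, SRSF7 -0.25 ± 0.08, adjusted p = 0.099 and HNRNPH3 -0.12 ± 0.06, adjusted p = 0.373. When the 28S/18S ratio was added 1 member rose and 11 fell. The part of macrophages or RNA integrity in these changes was not tested further.

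**Figure D3:**
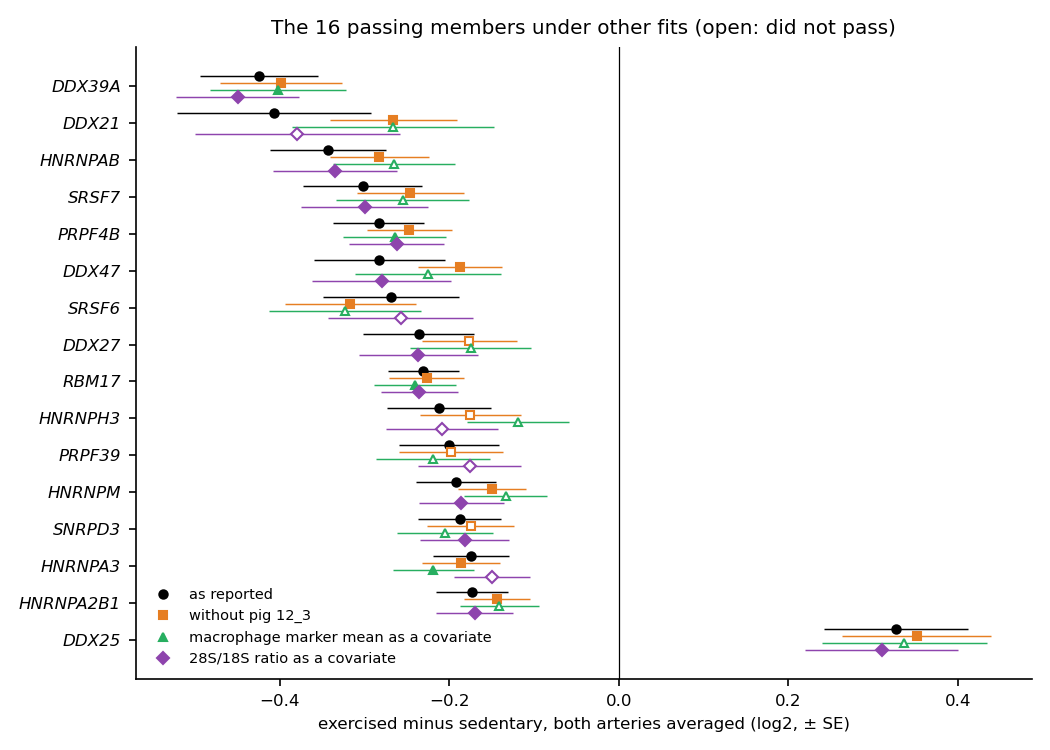
Averaged exercise change (log2, horizontal axis, with SE) of the 16 passing members as reported, without pig 12_3, and with 2 covariates; open symbols did not pass. All values keep their sign, and DDX39A, RBM17 and PRPF4B pass in all 4 fits.

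The pigs were collected over a long span, and 8 were collected early and 7 late. In the early pigs the averaged change of DDX39A was -0.41 ± 0.09, adjusted p = 0.0466, and in the late pigs -0.40 ± 0.10, adjusted p = 0.144. RBM17 gave -0.24 ± 0.05, adjusted p = 0.0468 early and -0.22 ± 0.08, adjusted p = 0.346 late. DDX21 gave -0.59 ± 0.19 early and -0.19 ± 0.12 late, and DDX47 gave -0.42 ± 0.11 early and -0.10 ± 0.07 late. Over all members the median averaged change was -0.14 in the early pigs, with 74 of 95 negative and 3 fallen, and -0.07 in the late pigs, with 74 negative and 0 passing. Pig 12_3 was 1 of the 4 sedentary pigs collected early, and the early fit was not run without it. The larger early changes therefore cannot be told apart from the values of that pig.

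The members were also averaged on each array, after centring each on its mean in that artery. In the brachial artery the exercised pigs had means of -0.0761 to -0.0380 (median -0.0473), against -0.0180 to 0.167 in sedentary pigs (median 0.0448). The exercised values lay close together and did not overlap with the sedentary ones. In the internal mammary artery they ran from -0.115 to 0.0107 in exercised pigs (median -0.0425), against -0.0507 to 0.203 in sedentary pigs (median 0.0365), and overlapped. The same mean over all probe sets stayed between -0.0165 and 0.0113 on every array. That mean follows the level of the whole array, which differed little between arrays, and it averages far more values. Its narrow range therefore cannot show whether the separation of the member means was unusual.

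**Figure D4:**
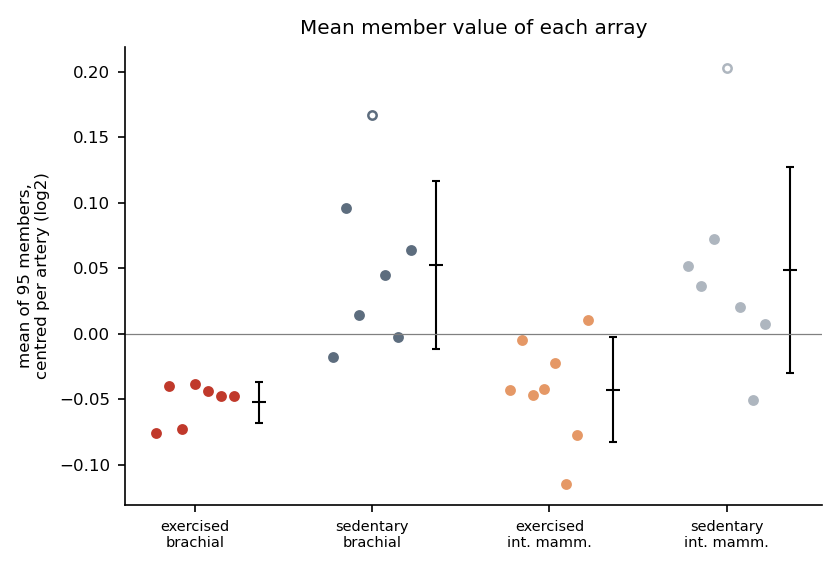
Mean of the 95 members on each array, each gene centred per artery (log2, vertical axis), by artery and training; open points are pig 12_3, and bars are the mean and SD over pigs. Exercised brachial arteries lie between -0.0761 and -0.0380, below all sedentary ones.

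Other genes of splicing outside the naming rule were read from 5 lists. Of 19 measured genes of the exon junction complex, SR-related proteins and SR kinases 4 fell in the average, 0 rose and 15 did not pass, with a median of -0.10. They were SRRM2, a scaffold of nuclear speckles (-0.37 ± 0.09, adjusted p = 0.0118), the export adaptor ALYREF (-0.21 ± 0.05, adjusted p = 0.0195), and the exon junction proteins CASC3 (-0.19 ± 0.05, adjusted p = 0.019) and RNPS1 (-0.16 ± 0.04, adjusted p = 0.028). Of 30 other core spliceosome genes 1 rose and 1 fell (median -0.04). CDC5L, of the complex around PRPF19, rose (0.19 ± 0.05, adjusted p = 0.0229), also in the brachial artery alone (0.25 ± 0.06, adjusted p = 0.0377), and the U2-associated SMNDC1 fell (-0.27 ± 0.08, adjusted p = 0.0488). Among 24 other regulators of alternative splicing RBMS2 rose (0.19 ± 0.06, adjusted p = 0.0411) and 23 did not pass. Of 11 genes of the SMN complex and snRNP assembly the snRNA export adaptor PHAX fell (-0.21 ± 0.06, adjusted p = 0.0416), and of 8 DEAH helicases and eIF4A genes DHX15, which takes spent spliceosomes apart, fell (-0.22 ± 0.06, adjusted p = 0.0227). In each artery alone 0 genes of these 5 lists passed other than CDC5L.

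The last comparison set the brachial against the internal mammary artery. Of the 95 members 21 were higher and 31 lower in the brachial artery, where 31.8% of all probe sets were higher and 22.5% lower. With each array centred on its median, under which the median of all probe sets was 0.08 in place of 0.03, 25 members were higher and 18 lower. The members' counts stand beside a background in which most probe sets passed. Without pig 12_3, 21 were higher and 28 lower. By role, on the values as deposited, 0 of 11 SR proteins were higher and 5 lower, 3 of 17 hnRNP proteins were higher and 5 lower, and 1 of 16 RNA binding motif proteins was higher and 7 lower. Of 9 DEAD-box helicases grouped under splicing, export and translation 4 were higher and 2 lower in the brachial artery. In 14 pigs with both arteries, 9 members were higher and 11 lower in the brachial artery of every pig, where 8.08% of all probe sets were higher and 7.59% lower in every pig.

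DDX46, the helicase that prepares the U2 snRNP for the branch site, was the member with the largest difference (-1.38 ± 0.11, adjusted p = 4.66e-11). Its lowest, median and highest values were 5.87, 6.85 and 7.70 in exercised and 6.95, 7.40 and 7.71 in sedentary brachial arteries, against 8.19, 8.41 and 8.73 in exercised and 8.28, 8.70 and 8.83 in sedentary internal mammary arteries. The arteries did not overlap. Its second probe set gave -0.09 ± 0.08 and did not pass. DDX6, a helicase of mRNA storage and decay, gave -1.18 ± 0.13, adjusted p = 1.61e-08, and the splicing regulator RBM25 gave -0.75 ± 0.08, adjusted p = 5.4e-09. DDX27 (-0.53 ± 0.05, adjusted p = 1.26e-09), RBM17 (-0.50 ± 0.03, adjusted p = 5.31e-13) and the export helicase DDX19A (-0.37 ± 0.04, adjusted p = 1.86e-08) were lower in the brachial artery in 14 of 14 pigs. HNRNPM (-0.30 ± 0.04), SRSF5 (-0.28 ± 0.08), RBM18 (-0.28 ± 0.05), PRPF38B (-0.27 ± 0.07), RBM26 (-0.27 ± 0.05) and RBM12B (-0.25 ± 0.08) followed. PRPF38B gave 0.056 (adjusted p = 0.316) when its probe sets were averaged.

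SF3B4, an SF3B subunit that contacts pre-mRNA near the branch site, was higher in the brachial artery (0.72 ± 0.05, adjusted p = 2.72e-13). Its values were 10.11, 10.32 and 10.47 in exercised and 10.11, 10.39 and 10.59 in sedentary brachial arteries, against 9.42, 9.62 and 9.78 in exercised and 9.50, 9.75 and 9.80 in sedentary internal mammary arteries, with no overlap. The nucleolar helicase DDX54 (0.50 ± 0.05, adjusted p = 1.64e-09), DDX39B (0.45 ± 0.07, adjusted p = 7.02e-06), U2AF2 (0.44 ± 0.07, adjusted p = 2.48e-06) and DDX39A (0.40 ± 0.05, adjusted p = 6.34e-07) were higher in the brachial artery of all 14 pigs as well. For DDX39A the group means were 8.47 ± 0.18 in exercised and 8.92 ± 0.19 in sedentary brachial arteries, against 8.10 ± 0.20 in exercised and 8.50 ± 0.15 in sedentary internal mammary arteries. The exercised brachial and sedentary internal mammary means, next to each other in that order, differed by less than their SD. The U1 protein SNRPA (0.36 ± 0.07), DDX4 (0.27 ± 0.05), SF3A1 (0.26 ± 0.04), DDX11 (0.22 ± 0.06), RBM42 (0.21 ± 0.04), RBM19 (0.20 ± 0.05) and HNRNPUL1 (0.20 ± 0.03) completed the 12 largest in this direction. DDX54, U2AF2, DDX11 and DDX4 are among the 8 members at or below the median probe set, where signal over background limits what can be read.

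**Figure D5:**
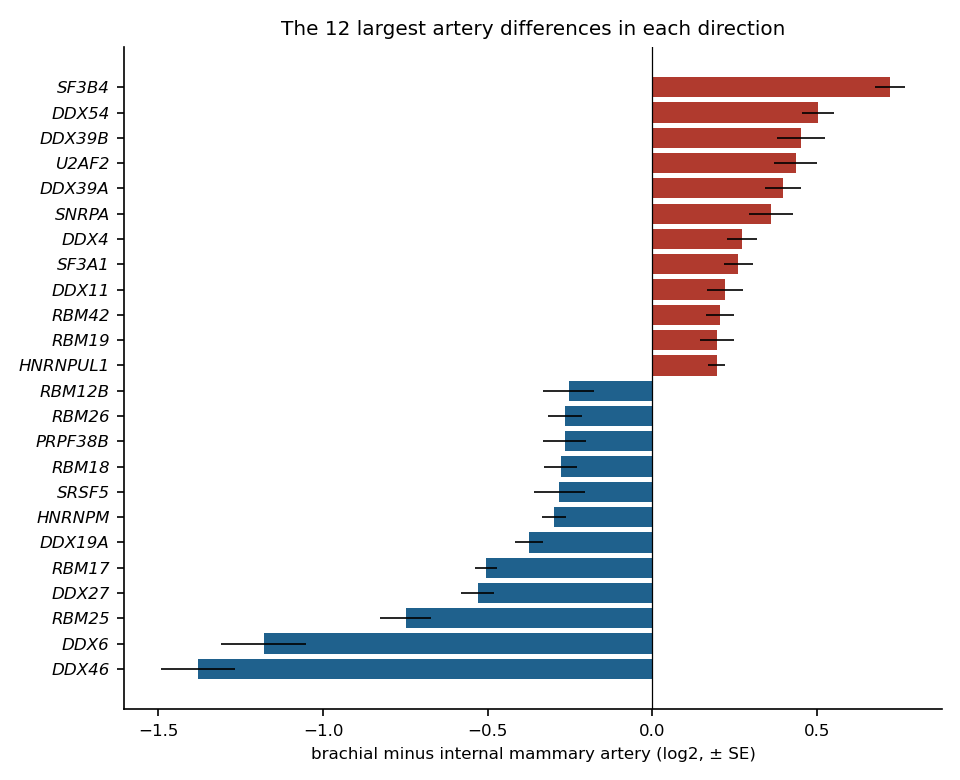
Difference between brachial and internal mammary artery (log2, horizontal axis, bars with SE) of the 12 members with the largest passing difference in each direction. DDX46 and DDX6 reach -1.38 and -1.18, and SF3B4 reaches 0.72.

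Array and RNA measures differed between the arteries too. The mean of 7 bacterial control probe sets, spiked in during preparation, was 10.53 in brachial and 9.74 in internal mammary samples, higher in 14 of 14 pigs (difference 0.79, exact permutation p = 0.000122, the smallest possible). The actin 3′ minus 5′ difference, which grows as RNA or its copy is shortened, was 2.24 in brachial and 1.33 in internal mammary samples, again higher in 14 of 14 pigs (difference 0.91, exact permutation p = 0.000122). With it as a covariate 16 members passed, 6 higher and 10 lower in the brachial artery. The 28S/18S ratio was 1.40 ± 0.176 in brachial and 1.25 ± 0.102 in internal mammary samples, higher in 11 of 14 pigs (difference 0.142, exact permutation p = 0.00635, adjusted p = 0.0317). With that ratio as a covariate 19 members were higher and 19 lower, and 16 of the 52 reported no longer passed. Fibroblast markers were higher by 0.450 (exact permutation p = 0.000244) and macrophage markers lower by 0.287 in the brachial artery. Artery and sample handling cannot be told apart here. Of 32 further probe sets of the members that passed, 24 had the sign of the one reported. HNRNPA2B1, higher in the brachial artery by 0.09, had 2 further probe sets that were lower there, at -0.53 and -0.21.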

How the data were processed

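Total RNA of luminal artery scrapes was amplified from its poly(A) end, labelled with biotin and hybridised to single-colour porcine arrays, 1 sample per array. The values are deposited log2 probe set summaries, made by the authors with affy per the submitters' processing notes. Background correction, summarisation and normalization are not given in the sources used here. Values ran from 1.97 to 14.8 with array medians of 7.13 to 7.28, and the values were used as deposited. The number of pigs limits the precision.

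Sample titles and treatment tags set the groups, also where the source label of 8 samples differed. Of 23999 probe sets, after 124 controls were left out, 10069 had 1 gene symbol in the platform annotation, 198 several and 13732 none. Means of the 4 groups were fitted with limma 3.58.1 in R 4.3.3, with the pig as a random block (correlation 0.255), and p-values were adjusted by Benjamini-Hochberg over all probe sets. Both arteries of a pig come from 1 animal per the labels. Over 14 such pigs the deviations of the own pair had a median correlation of 0.19, against -0.023 between different pigs. P-values of the exercise changes rest on the spread between pigs of a group, with a variance shared by both arteries. Those of the artery difference and of the interaction rest mainly on how far the difference between a pig's arteries varied among pigs. Quality measures and marker means were compared by two-sided exact permutation tests. The closing section gives other fits, among them leaving out each pig in turn, and 4 added after the data were seen. The fit was checked on simulated data.

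The members, roles and lists were chosen with earlier results of these data known. Per comparison the text names the 12 largest passing changes in each direction or, where fewer than 10 members pass, all of them with the 5 positive and 5 negative changes of smallest p. It also names the member with the highest mean in each role, and the fixed members DDX39A, DDX39B, RBM17, SF3B1, U2AF2, HNRNPA1, SRSF1 and RBM3. HNRNPA3 and the brachial values of HNRNPH3, DDX21, SRSF6 and DDX46 were named after their values were seen.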

Additional observations from a re-analysis of the deposited data

Results flagged for a closer look

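Each named member was examined in each group for a sample lying far from the others, by the gap to its nearest neighbour over the range of the group. Of 192 groups examined 21 had such a sample, or 10.9%, where chance gives about 5%. In sedentary pig 12_3 the internal mammary artery stood highest in its group for DDX21 (11.47, next 10.74), DDX47 (9.87), HNRNPAB (11.96), HNRNPM (11.79), PRPF4B (10.67) and RBM12B (9.53). Its brachial artery stood highest for RBM19 (8.28), and RBM3 was lowest in both its brachial (11.19) and its internal mammary artery (11.18).

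In sedentary pig 11_4 the brachial artery was lowest for DDX1 (11.01), HNRNPL (8.90) and SRSF3 (11.61). Exercised pig 10_1 had the lowest brachial values of DDX25 (5.43) and SNRPD3 (11.23), and exercised pig 10_5 the lowest brachial value of HNRNPL (9.20). HNRNPA1 was highest in the brachial artery of exercised pig 12_5 (12.61, next 12.33). U2AF2 was lowest in the brachial artery of exercised pig 15_2 (6.59) and in the internal mammary artery of exercised pig 14_3 (6.08). DDX6 was lowest in the internal mammary artery of sedentary pig 11_1 (9.74, next 10.46). In sedentary pig 10_2 the brachial artery was lowest for PRPF39 (9.31) and had the highest 28S/18S ratio of its group (1.79).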

How the results depend on the processing

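Of the exercise changes that passed, 6 brachial, 2 internal mammary and 16 averaged, none turned its direction under an alternative run, and changes that did not pass were not followed. Member counts under other fits, here and above, stand without the share of all probe sets passing in the same fit. A lower count is therefore not shown to be particular to the members. In the brachial artery, against 6 as reported, 0 members passed with this artery fitted alone and no pig term. The counts were 3 with arrays centred on their medians, 3 with array weights and 11 with the smooth muscle marker mean. They were 0 with the macrophage marker mean, 0 in early pigs alone and 0 in late pigs alone. In the internal mammary artery, against 2, the count was 1 with this artery fitted alone and no pig term. It was 5 with array weights, 5 with the smooth muscle mean and 4 with the mean of each gene's probe sets. In early and in late pigs alone it was 0. In the average, against 16, the counts were 4 with pig means and no pig term, 4 with the macrophage mean, 3 in early and 0 in late pigs. Between arteries, against 52, they were 31 in late pigs and 16 with the actin difference as a covariate. With no replicate block the counts were 4, 2, 22, 0 for the interaction and 43 between arteries. Leaving out each pig in turn gave 2 to 6 in the brachial artery, 0 to 4 in the internal mammary artery, 10 to 16 in the average, 0 for the interaction and 46 to 53 between arteries. DDX39A and HNRNPAB passed in the brachial artery without each of the 15 pigs. Some artery differences reversed, and the cause was not tested. With the mean of each gene's probe sets these were DDX1 (-0.068), HNRNPA2B1 (-0.22, adjusted p = 4.64e-08), HNRNPH2 (0.012), PRPF38B (0.056) and PRPF39 (0.0026). With the actin covariate they were RBM34 (0.12), RBM4 (0.14), SF3B6 (0.10) and SNRPF (0.17). The early and late fits, the period factor and the actin covariate were added after the data were seen, and the first pair hold fewer pigs. DDX25 gave no value where the dimmest probe sets were left out. The 8 members DDX4, SRSF12, DDX60, DDX25, DDX11, HNRNPU, U2AF2 and DDX54 lie at or below the median probe set, where signal over background limits what can be read.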
